A study of Mus musculus with 8 samples.

Results

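The integrated stress response is described here by 10 genes of its ATF4 axis. These are Atf4, Ddit3, Trib3, Chac1, Asns, Sesn2, Ppp1r15a, Ddit4, Psat1 and Phgdh, found by symbol among the 48709 gene identifiers of the count files. The 10 genes and the further lists below were set with earlier results of these data known. Their counts beside shares of all genes are therefore descriptions. All 10 passed the low-count filter, with 12696 genes tested in all. RNA came from cultures of HSPCs, blood stem and progenitor cells of C57Bl/6J mice that lack lineage markers and carry Sca1 and cKit. One group held 4 libraries of cells kept with 100 µM malonyl-CoA, the building block of fatty acid chains and an inhibitor of fatty acid import into mitochondria, and the other 4 libraries of cells kept without it. Both groups spent 7 days in serum-free Stemline II medium with antibiotics, 100 ng/ml of SCF (stem cell factor) and 2 ng/ml of Flt3 ligand, and each library came from the progeny of 10000 seeded cells. The libraries are numbered 1, 3, 4 and 5 in both groups, and nothing says whether a number stands for an animal, a pool or a culture, so p-values measure the spread between these libraries.

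Cells start the integrated stress response when kinases that sense amino acid shortage, misfolded protein, double-stranded RNA or heme shortage phosphorylate the initiation factor eIF2. General protein synthesis then slows, while the mRNA of the transcription factor ATF4 is translated better through its upstream reading frames, and ATF4 induces genes of amino acid supply, redox balance and, under lasting stress, cell death. ATF4 is thus set mainly by translation, and RNA levels give neither eIF2 phosphorylation nor ATF4 protein. In human blood stem cells the pathway is known to be active at rest and to take part in the choice between survival and death under stress.

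ATF4 binds, together with C/EBP proteins, a composite element with the core TGATGNAA, and related factors bind the relative TGACGNAA and the cyclic AMP response element TGACGTCA. These 3 motifs, each of 8 letters, were searched on both strands in the 250 bases before each RefSeq start (GRCm38.p6), for which 11 windows were found for the 10 genes. A match was found in 3 windows, those of Chac1, Asns and Ppp1r15a, and 6.26% of all 32851 promoter windows held at least 1 of the motifs (3.45% TGATGNAA, 1.39% TGACGNAA and 1.55% TGACGTCA). The 3 windows shown are those with a match. Of their genes, Ppp1r15a separated the groups below and Chac1 and Asns did not. Ddit3 and Sesn2, which also separated the groups, had no match in their windows. Capitals mark the matches, and no matches overlap. In Chac1 (chr2:119350992-119351241, plus strand) they start 250 and 193 bases before the start, the second on the reverse strand. In Asns (chr6:7693210-7693459, minus strand) the match starts 23 bases and in Ppp1r15a (chr7:45526269-45526518, minus strand) 12 bases before the start.
Ppp1r15a: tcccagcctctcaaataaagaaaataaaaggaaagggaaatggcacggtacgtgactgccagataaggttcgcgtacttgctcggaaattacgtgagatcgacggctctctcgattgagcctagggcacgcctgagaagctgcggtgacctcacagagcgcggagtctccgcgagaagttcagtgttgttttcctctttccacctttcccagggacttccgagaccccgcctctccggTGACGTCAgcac
Chac1: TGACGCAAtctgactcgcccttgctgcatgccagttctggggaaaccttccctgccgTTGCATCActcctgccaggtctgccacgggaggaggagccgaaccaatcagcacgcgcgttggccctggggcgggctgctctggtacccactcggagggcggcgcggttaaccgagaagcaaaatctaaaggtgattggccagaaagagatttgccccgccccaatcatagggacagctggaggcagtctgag
Asns: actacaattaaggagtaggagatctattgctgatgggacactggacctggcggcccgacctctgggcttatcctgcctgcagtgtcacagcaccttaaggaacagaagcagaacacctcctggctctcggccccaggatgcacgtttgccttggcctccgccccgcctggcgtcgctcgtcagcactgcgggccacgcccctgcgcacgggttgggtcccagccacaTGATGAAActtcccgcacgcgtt
A match describes letters in a window and is not evidence of binding, and a window with no match says nothing about regulation elsewhere.

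Libraries held 17492085 to 21308153 gene counts with malonyl-CoA and 18233714 to 22079844 in control. Malonyl-CoA 4 stood apart, at 63.3 on the first principal component (48.9% of the variance) where the other 7 libraries lay between -30.4 and 25.3. The counter assigned 2.94% of the reads it tallied for malonyl-CoA 4 to no feature, where the other libraries had 1.11% to 1.56%. The levels of genes also followed the GC share of their transcripts to a different degree in each library. Across 10288 genes, the Spearman's rho between a gene's deviation from its mean and its GC share was 0.52, 0.25, 0.23 and 0.20 in malonyl-CoA 1, 3, 4 and 5, and -0.11, -0.08, 0.24 and -0.74 in control 1, 3, 4 and 5. These correlations run across genes, which are no replicates, and describe each library alone. Of the stem and progenitor markers, 9 of 10 reached 1 CPM in some library (Mecom did not), Kit averaged 244 ± 51.9 CPM with malonyl-CoA and 270 ± 36.7 CPM in control (SD, n = 4 each), and Pax5 and the globin genes stayed below 1 CPM. The granulocyte gene Mpo stood at 9165 ± 1470 and 9386 ± 2425 CPM in the same groups, far above Kit. Levels differed widely between granulocyte markers. Elane averaged 2488 CPM with malonyl-CoA and 3200 CPM in control, above Kit, and Camp 9.66 and 17.3 CPM, below it. Mpo therefore does not stand for granulocyte transcripts as a whole.

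CPM are counts scaled by library size and TMM factors. No gene of the 10 passed edgeR's quasi-likelihood test after Benjamini-Hochberg adjustment over all genes (0 of 10, where 0% of all genes passed), and 0 of 10 passed in limma-voom or in DESeq2, where 0.591% of all genes passed. Ppp1r15a, Ddit3 and Sesn2 were the 3 genes with an unadjusted p under 0.05, all with higher values in malonyl-CoA, where 5.43% of all genes had such a p in that direction and 4.10% in the other (0 of 10 here). With the replicate number as a block, 1.35% of all genes passed the adjusted threshold and again 0 of the 10. The same 3 genes had no overlap between the groups, with malonyl-CoA higher, which held for 3.21% of all genes. Fitted log2 fold changes were above 0 in 8 of 10 genes, against 53.4% of all genes tested, and their median was 0.19, against 0.02 over all genes. After a correction for GC share the median was -0.02 and 4 of 10 were above 0, against -0.02 and 45.5% over all genes. Ppp1r15a and Ddit3 were the genes whose groups still did not overlap, while 0 of 10 lay below all controls, which held for 3.69% of all genes on that scale. The correction takes out any difference between libraries that follows GC share, whatever its source.

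**Figure D1:**
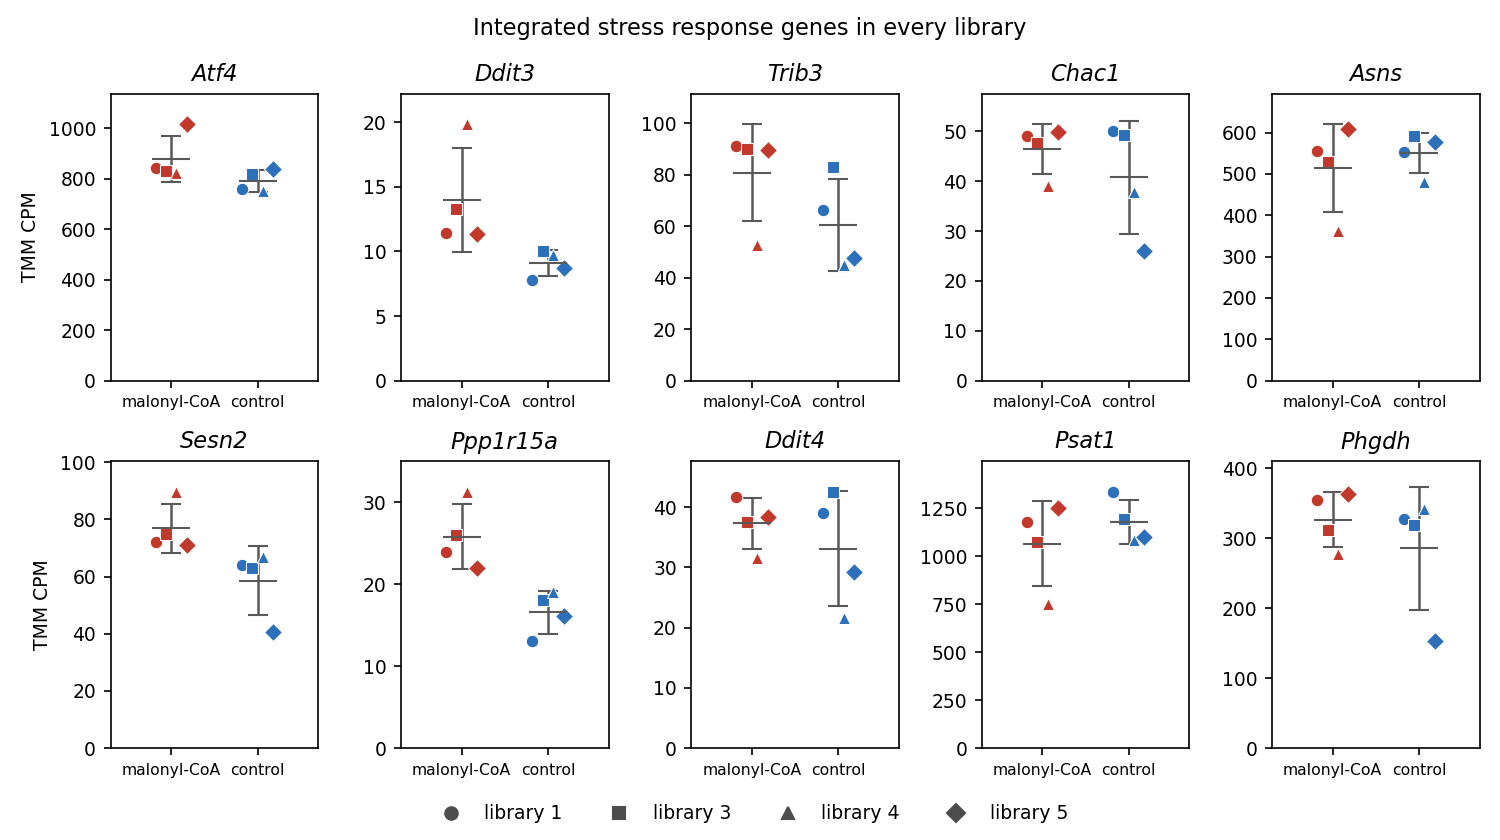
Level of each of the 10 genes in TMM-normalised CPM on a linear axis from 0, with 1 symbol per library and the mean ± SD of each group (n = 4). The malonyl-CoA libraries lie above every control in Ddit3, Sesn2 and Ppp1r15a and overlap the controls in the other 7 genes.

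Levels between genes were compared as CPM per kilobase of annotated exon. Atf4 itself was the most abundant, at 372 ± 39.2 CPM per kilobase with malonyl-CoA and 336 ± 18.2 in control (SD, n = 4 each). Next came the 3 biosynthetic enzyme genes, Psat1 at 250 ± 52.1 and 278 ± 27.0, Asns at 188 ± 38.8 and 201 ± 17.9 and Phgdh at 132 ± 15.97 and 115 ± 35.6 CPM per kilobase. The 6 effectors of feedback and stress were all lower. Trib3 (38.0 ± 8.84 and 28.5 ± 8.38), Chac1 (28.4 ± 3.06 and 24.9 ± 6.92), Ddit4 (21.2 ± 2.39 and 18.8 ± 5.44) and Sesn2 (22.1 ± 2.5 and 16.9 ± 3.5) followed in that order of overall mean. In control, the intervals of mean ± SD overlapped between neighbours among these 4, and with malonyl-CoA those of Chac1 and Ddit4 did not. The lowest were Ppp1r15a (8.79 ± 1.36 and 5.64 ± 0.89) and Ddit3 (8.16 ± 2.34 and 5.30 ± 0.58), whose levels lay within 1 SD of each other in both groups.

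Transcription factors came first in the axis. Atf4 (ENSMUSG00000042406, GRCm38 chromosome 15, 80255184 to 80257541) had 843, 829, 822 and 1015.5 CPM in malonyl-CoA 1, 3, 4 and 5, and 760, 819, 751 and 838 CPM in control 1, 3, 4 and 5. The groups overlapped, and malonyl-CoA 5 lay well above the other 3 malonyl-CoA libraries, which were close to one another. For Atf4 the fitted log2 fold change came to 0.15 (SE 0.11, edgeR adjusted p = 0.583). It was -0.06 on the GC-corrected scale and 0.07 with malonyl-CoA 5 left out. Ddit3 encodes CHOP, the factor that ATF4 induces and that takes lasting stress toward cell death (ENSMUSG00000025408, chromosome 10, 127290774 to 127296288). It had 11.4, 13.3, 19.8 and 11.4 CPM in the malonyl-CoA libraries against 7.81, 10.003, 9.74 and 8.73 CPM in the controls. Every malonyl-CoA library was above every control, the lowest of them by 1.13 times over the highest control, and malonyl-CoA 4 was the highest. Ddit3 had a fitted log2 fold change of 0.63 (SE 0.20, edgeR adjusted p = 0.445), or 0.66 on the GC-corrected scale, and of 0.40 with malonyl-CoA 4 left out. These values rest on 137 to 444 reads per library, and the 3' end of Ddit3 overlaps Mars on the other strand, where the strand setting of the counter is not given in the sources used here. Mars itself had 214 to 252 CPM with malonyl-CoA and 152 to 216 CPM in control, far more than Ddit3. A second annotated entry named Ddit3 overlaps the gene on the same strand, and Gm4189, at most 0.45 CPM in any library, on the other. Ddit3 is therefore uncertain. The part of Mars reads in its count, and any loss of reads as ambiguous, was not tested.

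Feedback genes showed both patterns. Ppp1r15a encodes GADD34, the inducible phosphatase subunit that dephosphorylates eIF2 and ends the response (ENSMUSG00000040435, chromosome 7, 45522916 to 45526268). It had 24.0, 26.0, 31.3 and 22.0 CPM with malonyl-CoA 1, 3, 4 and 5, against 13.1, 18.1, 19.0 and 16.1 CPM in control 1, 3, 4 and 5. The groups did not overlap, and the lowest malonyl-CoA library stood 1.16 times above the highest control. The log2 fold change of 0.64 (SE 0.16, unadjusted p = 0.00302, edgeR adjusted p = 0.352) was the largest of the 10 genes, and it was 0.53 to 0.71 with any 1 library left out and 0.43 after the GC correction. It overlaps Tulp2 on the other strand, but Tulp2 had at most 0.12 CPM in any library. Ppp1r15b, the subunit that is made without stress, stood at 264 ± 16.7 CPM with malonyl-CoA and 280 ± 18.5 CPM in control (SD, n = 4 each; log2 fold change -0.09, SE 0.10). Trib3, a pseudokinase that ATF4 and CHOP induce and that restrains ATF4 (ENSMUSG00000032715, chromosome 2, 152337422 to 152344032), had 91.2, 89.9, 52.7 and 89.6 CPM with malonyl-CoA and 66.2, 83.1, 45.0 and 47.6 CPM in control. The groups overlapped only through malonyl-CoA 4, since the other 3 malonyl-CoA libraries were above every control. Malonyl-CoA over control gave a log2 value of 0.42 (SE 0.24, edgeR adjusted p = 0.522) and 0.16 after the GC correction.

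Genes of redox and growth control followed. Chac1, which breaks down glutathione (ENSMUSG00000027313, chromosome 2, 119351229 to 119354381), had 49.1, 47.6, 39.0 and 49.8 CPM with malonyl-CoA and 50.1, 49.3, 37.8 and 26.1 CPM in control. The groups overlapped widely, with control 5 alone well below the other 7 libraries. Chac1 had a fitted value of 0.19 in log2 (SE 0.20, edgeR adjusted p = 0.684), 0.02 without control 5 and -0.04 after the GC correction. Sesn2, a leucine sensor that holds back mTORC1 (ENSMUSG00000028893, chromosome 4, 132492032 to 132510501), had 72.0, 74.8, 89.7 and 71.1 CPM with malonyl-CoA and 63.9, 62.9, 67.0 and 40.5 CPM in control. No control reached the malonyl-CoA libraries, which were higher by 1.06 times at the closest pair. In the fit the log2 difference was 0.39 (SE 0.17, edgeR adjusted p = 0.515), 0.25 without control 5 and 0.12 after the GC correction, where the groups overlapped. Its relatives, induced mainly by p53 and FoxO factors, lay on the other side of 0, with Sesn1 at 80.7 ± 6.89 and 95.1 ± 11.6 CPM and Sesn3 at 31.2 ± 2.88 and 33.2 ± 3.85 CPM (SD, n = 4 each), log2 fold changes of -0.24 (SE 0.12) and -0.09 (SE 0.13). Ddit4, which encodes the mTORC1 inhibitor REDD1 (ENSMUSG00000020108, chromosome 10, 59949669 to 59951834), had 41.7, 37.5, 31.6 and 38.4 CPM with malonyl-CoA and 39.0, 42.5, 21.5 and 29.2 CPM in control. The groups overlapped, and the controls spanned more than the malonyl-CoA libraries. For Ddit4 the log2 difference was 0.18 (SE 0.21, edgeR adjusted p = 0.712), 0.02 without control 4 and -0.10 after the GC correction.

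Of the 3 amino acid enzyme genes, Asns and Psat1 were the members with log2 fold changes below 0, and Phgdh was above it. Asns, the asparagine synthetase (ENSMUSG00000029752, chromosome 6, 7675169 to 7693254), had 556, 529, 363 and 608 CPM with malonyl-CoA and 554, 591, 481 and 576 CPM in control. Malonyl-CoA 4 was the lowest library and malonyl-CoA 5 the highest, so the controls lay inside the range of the malonyl-CoA libraries. Asns had a log2 difference of -0.10 (SE 0.16, edgeR adjusted p = 0.792) and 0.03 without malonyl-CoA 4. Phgdh, which takes 3-phosphoglycerate into serine synthesis (ENSMUSG00000053398, chromosome 3, 98313170 to 98339990), had 354, 312, 278 and 363 CPM with malonyl-CoA and 328, 319, 342 and 154 CPM in control. The groups overlapped, and control 5 was lower than any other library. Phgdh had a log2 difference of 0.19 (SE 0.23, edgeR adjusted p = 0.711) and -0.01 both without control 5 and after the GC correction. Psat1, the next enzyme of serine synthesis (ENSMUSG00000024640, chromosome 19, 15904678 to 15947337), had 1182, 1074, 752 and 1254 CPM with malonyl-CoA and 1337, 1197, 1085 and 1103 CPM in control. Psat1 had a log2 difference of -0.15 (SE 0.17, edgeR adjusted p = 0.696) and -0.02 without malonyl-CoA 4. The groups overlapped here too, with malonyl-CoA 4 again the lowest library. The processed pseudogene Gm3329 inside Psat1 and Gm12981 over Sesn2 had at most 0.09 CPM in any library.

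The genes did not vary together between libraries. Within the malonyl-CoA group, malonyl-CoA 4 was the highest library in Ddit3, Sesn2 and Ppp1r15a and the lowest in the other 7, and malonyl-CoA 5 was the lowest in those 3. In log2 CPM, the median deviation from the mean of the 8 libraries in malonyl-CoA 4 was 0.61 over those 3 genes and -0.13 over the other 7. Those 3 are the genes in which every malonyl-CoA library lay above every control in these same data. A raised malonyl-CoA 4 is thus partly built into the split, and the contrast of these medians is no test of it. Without malonyl-CoA 4 and control 5, 9 of 10 log2 fold changes were above 0 with a median of 0.18, against 49.1% and -0.004 over all genes. Those of Ppp1r15a, Ddit3 and Sesn2 were then 0.52, 0.39 and 0.17. In control 5, the 7 members with transcripts above the median GC share of all tested genes (49.4%) had deviations of -0.95 (Phgdh), -0.71 (Chac1), -0.71 (Sesn2), -0.51 (Trib3), -0.35 (Ppp1r15a), -0.24 (Ddit4) and 0.01 (Atf4). Ddit3, Asns and Psat1, at 45.6%, 47.7% and 48.4% GC, were the 3 members below that median, and their deviations in control 5 were -0.34, 0.13 and -0.01, within the range of the other 7 except for Asns.

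**Figure D2:**
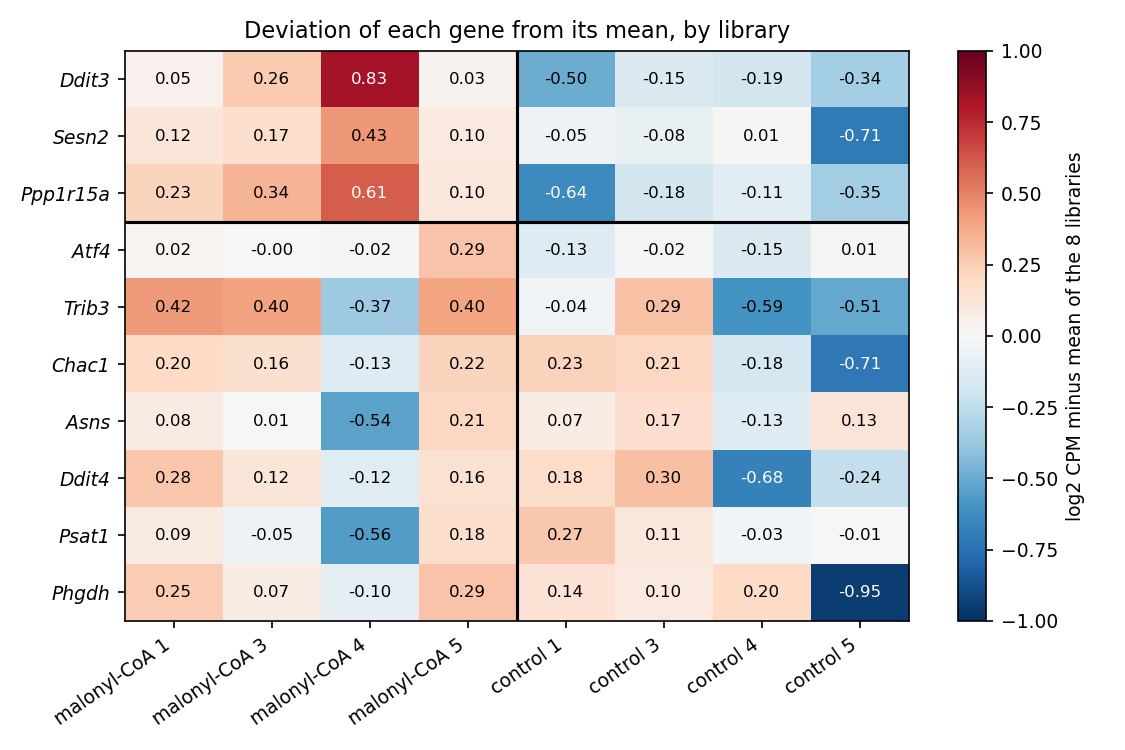
Log2 CPM of each gene in each library minus the gene's mean over the 8 libraries, with the malonyl-CoA libraries left of the vertical line and the controls right of it. Above the horizontal line are the 3 genes whose groups did not overlap, in which malonyl-CoA 4 is highest (0.83, 0.43 and 0.61), and below it are the 7 genes in which malonyl-CoA 4 is the lowest malonyl-CoA library.

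**Figure D3:**
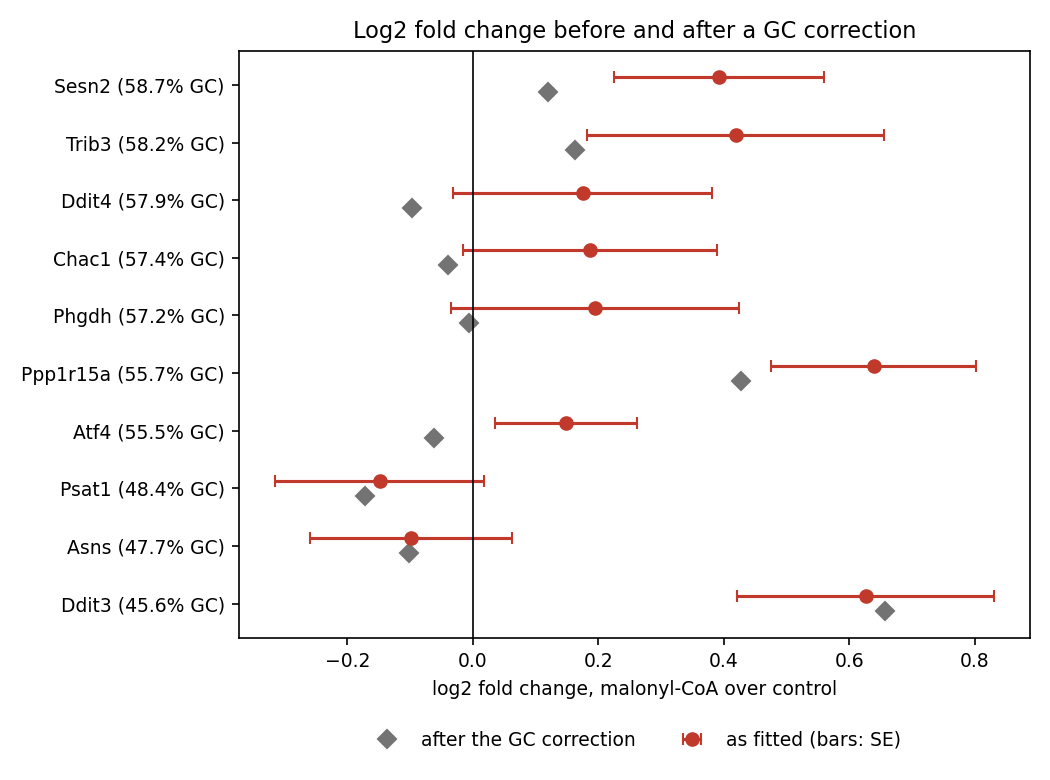
Log2 fold change of malonyl-CoA over control for the 10 genes, ordered by the GC share of the longest transcript, as fitted (circles, bars are SE, n = 4 libraries a group) and after the GC correction (diamonds). The 7 genes above 55% GC all have a smaller value after the correction and 4 of them cross 0, while Ddit3, Asns and Psat1 differ by at most 0.03 between the fits.

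The correction moved the 7 GC-rich members and left the other 3 nearly in place. Corrected log2 fold changes were 0.66 for Ddit3, 0.43 for Ppp1r15a, 0.16 for Trib3, 0.12 for Sesn2, and they lay between -0.10 and -0.01 for Atf4, Chac1, Ddit4 and Phgdh, while Asns stood at -0.10 and Psat1 at -0.17. In GC-corrected CPM, Ppp1r15a had 22.4, 25.0, 27.0 and 21.3 in malonyl-CoA 1, 3, 4 and 5, against 13.9, 18.4, 18.3 and 20.5 in control 1, 3, 4 and 5. Corrected Ddit3 had 11.8, 13.4, 19.7 and 11.6 CPM with malonyl-CoA against 8.05, 10.04, 10.04 and 7.78 CPM in control. These 2 of 10 genes, whose groups did not overlap on that scale either, compare with 1.58% of all genes lying above the controls after the correction. The correction hardly moved Ddit3 (log2 fold change 0.63 before and 0.66 after), so it says little about that gene's separation. For Ppp1r15a the closest pair after it was 21.3 CPM in malonyl-CoA 5 against 20.5 CPM in control 5. Neither gene passed the test across all genes in either fit (edgeR adjusted p = 0.522 for Ddit3 and 0.559 for Ppp1r15a after the correction).

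**Figure D4:**
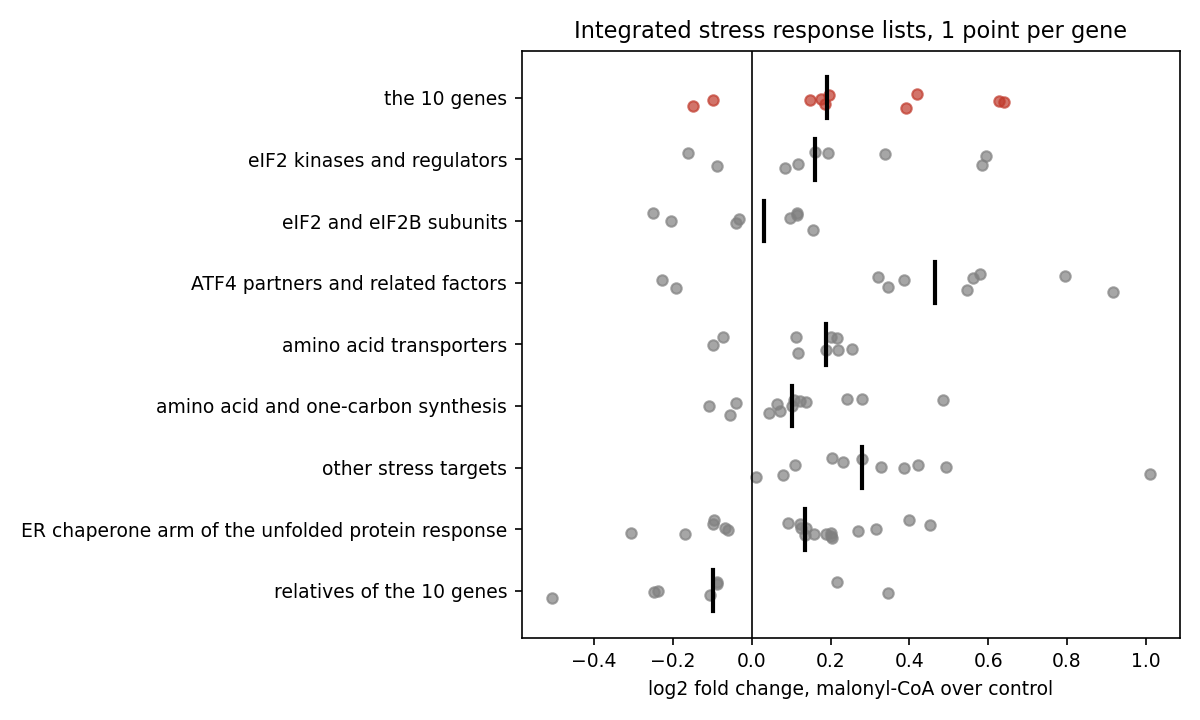
Log2 fold change of malonyl-CoA over control for every tested gene of the 10-gene list and of 8 further lists of the pathway (1 point per gene, vertical position within a row is arbitrary), with the median of each list as a black bar. Medians run from -0.10 for relatives of the 10 genes to 0.47 for ATF4 partners and related factors. None of the genes shown passed the test across all genes without the replicate block, while Gcn1l1 passed with it.

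The wider pathway was read from 8 further lists, and 0 of their genes passed edgeR's adjusted threshold without the replicate block. With the block 1 passed, Gcn1l1 (edgeR adjusted p = 0.0464), where 1.35% of all genes did. At the input, 7 of 9 tested genes of the eIF2 kinases and their regulators were above 0 (median 0.16), with 0 at an unadjusted p under 0.05. The kinase genes for PKR (Eif2ak2), GCN2 (Eif2ak4), PERK (Eif2ak3) and HRI (Eif2ak1) were each highest in malonyl-CoA 4. PKR senses double-stranded RNA and GCN2 uncharged tRNA. Eif2ak4 had 27.2, 26.4, 55.2 and 20.9 CPM with malonyl-CoA and 16.5, 22.4, 35.8 and 27.9 CPM in control, and its log2 fold change of 0.34 was -0.06 without malonyl-CoA 4. That of Eif2ak2 was 0.59 (SE 0.32) and 0.32 without malonyl-CoA 4, and that of Gcn1l1, an activator of GCN2, 0.58 (SE 0.29) and 0.33. The median of the list was -0.01 without malonyl-CoA 4. Eif2ak3 and Eif2ak1 stood at 0.12 (SE 0.15) and 0.16 (SE 0.15) with all libraries, and at -0.01 and 0.07 without malonyl-CoA 4. In Oma1, a mitochondrial protease that starts the relay to HRI, malonyl-CoA libraries were below each control (27.7 ± 1.98 and 30.9 ± 2.69 CPM; SD, n = 4 each), though the closest pair was nearly equal, which held for 2.93% of all genes. The subunits of eIF2 and eIF2B, the factors that the response acts on, had 4 of 8 above 0 and a median of 0.03, with Eif2s1, the phosphorylated subunit, at -0.20 (SE 0.18), Eif2s2 at -0.25 (SE 0.19) and Eif2b5 at 0.12 (SE 0.10). Without control 5 the values were -0.075 for Eif2s1, -0.015 for Eif2s2 and 0.063 for Eif2b5, and without control 5 and malonyl-CoA 4 the first 2 were 0.05 and 0.06.

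Of 10 ATF4 partners and related factors, 8 were above 0, 5 of them at an unadjusted p under 0.05, against 5.43% of all genes. Their median of 0.47 was the highest of the pathway lists before the GC correction, and after it was 0.18, below the 0.22 of other stress targets. Cebpb, a C/EBP partner of ATF4 and a myeloid factor, had 30.6, 34.3, 36.1 and 36.3 CPM with malonyl-CoA and 12.1, 17.5, 15.2 and 27.8 CPM in control. The groups did not overlap, and control 5 was the control closest to the malonyl-CoA libraries. Cebpb had a fitted log2 difference of 0.92 (SE 0.23, edgeR adjusted p = 0.352), 1.2 without control 5 and 0.26 after the GC correction. Atf5, which is translated under stress in the way ATF4 is, had a log2 fold change of 0.35 (SE 0.12) that was -0.03 after the correction. Nfe2l1, a regulator of proteasome genes, was at 0.55 (SE 0.19) and 0.37 after it. Of 2 further C/EBP genes, Cebpg was at -0.23 (SE 0.16), and Cebpd at 0.56 (SE 0.24) and 0.46 after the correction.

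In amino acid supply beyond the 10 genes, 1 transporter gene (Slc1a5) and 1 synthesis gene (Aldh1l2) had all malonyl-CoA libraries above all controls. That held for 3.21% of all genes. Transporter genes had 7 of 9 above 0 (median 0.19, and 0.03 after the GC correction), and the smallest p belonged to the glutamine transporter gene Slc1a5 at 0.20 (SE 0.11), Slc3a2, the shared heavy chain of transporters, at 0.19 (SE 0.11) and the glycine transporter gene Slc6a9 at 0.25 (SE 0.15). Without control 5, Slc1a5 was at 0.12 and Slc6a9 at 0.13. After the GC correction Slc1a5, Slc3a2 and Slc6a9 were at -0.03, 0.05 and 0.03. Slc7a11, which imports cystine and is a classical ATF4 target, stood at 94.6 ± 34.0 CPM with malonyl-CoA and 81.3 ± 27.7 CPM in control (SD, n = 4 each), a log2 fold change of 0.22 (SE 0.32) that was 0.43 without malonyl-CoA 4. In amino acid and one-carbon synthesis 10 of 13 were above 0 (median 0.10, and 0.00 after the correction). Aldh1l2, a mitochondrial folate enzyme, had 51.3, 56.1, 59.2 and 46.6 CPM with malonyl-CoA against 33.8, 36.7, 44.6 and 37.3 CPM in control. The groups did not overlap, and the log2 fold change of 0.48 (SE 0.13, unadjusted p = 0.00416, edgeR adjusted p = 0.364) was 0.47 after the correction. Its neighbours in the pathway had smaller log2 fold changes, with the mitochondrial serine enzyme gene Shmt2 at 0.28 (SE 0.18), Mthfd1 at 0.24 (SE 0.17), Mthfd2 at 0.06 (SE 0.10) and Psph, which completes serine synthesis after Phgdh and Psat1, at -0.06 (SE 0.16). Without control 5 Shmt2 was at 0.12, and without malonyl-CoA 4 Mthfd1 was at 0.10, Mthfd2 at 0.11 and Psph at 0.07.

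All 11 tested genes among other targets of ATF4 and CHOP had log2 fold changes above 0, with a median of 0.28, against 53.4% of all genes above 0. After the GC correction 9 of 11 were above 0, against 45.5% of all genes. Stc2, a secreted glycoprotein, stood at 70.8 ± 4.23 CPM with malonyl-CoA and 56.4 ± 6.77 CPM in control (SD, n = 4 each), with no overlap and a log2 fold change of 0.33 (SE 0.12, edgeR adjusted p = 0.502), which was 0.25 after the correction. Vegfa, the angiogenic factor, was at 0.39 (SE 0.14) and the mitochondrial protease gene Lonp1 at 0.42 (SE 0.17). After the correction Vegfa was at 0.30 and Lonp1 at 0.21, and without control 5 and malonyl-CoA 4 both were at 0.22. The stress cytokine gene Gdf15, at 8.72 ± 2.41 and 4.37 ± 3.20 CPM, had the highest log2 fold change of the list and the widest error (1.01, SE 0.46), and Fgf21 had no read in any library. In the ER chaperone arm, which ATF6 and XBP1 drive apart from ATF4, 14 of 20 were above 0 with a median of 0.14, which was 0.06 after the GC correction and 0.08 without malonyl-CoA 4. In 4 of the 20 the malonyl-CoA libraries were above each control, against 3.21% of all genes. Creld2, an ER redox protein, averaged 67.5 ± 3.80 and 51.2 ± 4.15 CPM, which is 0.40 in log2 (SE 0.11, edgeR adjusted p = 0.368) that was 0.22 after the correction. The ubiquitin ligase gene Syvn1 was at 0.32 (SE 0.14) and the chaperone gene Hyou1 at 0.45 (SE 0.22). After the correction Syvn1 was at 0.09 and Hyou1 at 0.34. Without control 5 and malonyl-CoA 4, Creld2, Syvn1 and Hyou1 were at 0.37, 0.16 and 0.26. The chaperone gene Hspa5, the usual readout of ER stress, was at 1264 ± 119 and 1160 ± 258 CPM (log2 fold change 0.12, SE 0.16), and Xbp1 at -0.17 (SE 0.13). Among relatives of the 10 genes 2 of 8 were above 0, Atf5 and Trib1 (0.22, SE 0.34), while Trib2 (-0.11, SE 0.21), Chac2 (-0.25, SE 0.24) and Ddit4l (-0.51, SE 0.32) were below. Without control 5 and malonyl-CoA 4, 4 of 8 were above 0, with Trib2 at 0.07, Chac2 at 0.07 and Ddit4l at -0.10, and Trib2 was at 0.02 without malonyl-CoA 4 alone.

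Markers of cell types varied beside these genes. Summed CPM of the 10 stem and progenitor markers was 1000 to 1031 with malonyl-CoA and 1091 to 1187 in control, without overlap. That gap in the sum came from Cd34 (mean ± SD of 454 ± 20.1 and 598 ± 41.4 CPM, n = 4 each), since the other 9 summed to 524 to 600 and 522 to 583 CPM. Of the 10, 5 had log2 fold changes above 0, with a median of -0.01. In 2 of them, Cd34 and Hlf (8.39 ± 0.48 and 12.3 ± 1.62 CPM), all malonyl-CoA libraries lay below all controls, against 2.93% of all genes. They lay above all controls in 0 of the 10. Granulocyte markers summed to 13704 to 17520 and 13548 to 21398 CPM, monocyte and macrophage markers to 1058 to 1252 and 951 to 1352 CPM, dendritic cell markers to 892 to 1650 and 798 to 1286 CPM, and mast cell and basophil markers to 1030 to 1258 and 1238 to 1409 CPM. For immediate early genes, which handling of cells can induce, the sums were 511 to 756 and 321 to 696 CPM, and 12 of 14 tested were above 0. All 10 granulocyte markers had log2 fold changes below 0, 5 of them with an unadjusted p under 0.05, against 4.10% of all genes. Of 10 dendritic cell markers 7 were above 0, 5 with such a p against 5.43% of all genes, and 1 had such a p on the other side of 0 (Cd209a, -0.72, SE 0.23). Among the 8 tested monocyte and macrophage markers 6 were above 0, 4 of them with such a p, and 2 were below 0. Marco (7.99 ± 1.54 and 2.13 ± 0.53 CPM, log2 fold change 1.89, SE 0.23) had the smallest edgeR adjusted p of all genes, 0.146. Ccr2, which made up much of that list's sum, was below 0 (525 ± 25.4 and 628 ± 146 CPM). The part of these lists in the values of the stress genes was not tested, and in bulk RNA fewer cells of a type and less RNA per cell cannot be told apart.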

How the data were processed

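A stranded total RNA kit took 350 ng of RNA per library, per the labels' protocols. The authors deposited raw counts per Ensembl gene, from cutadapt 1.8, STAR 2.5.2b and HTSeq 0.6.1 with build GRCm38, per the submitters' processing notes. Which annotation release and which strand setting were used is not given in the sources used here. Rows of counter classes (no feature 1.11% to 2.94%, ambiguous 0.715% to 0.891%, not unique 38.2% to 51.1% of tallied reads) were left out. GENCODE M21 (GRCm38) gave symbols for 48349 of 48709 identifiers.

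All genes were fitted with edgeR 4.0.16 (R 4.3.3): filterByExpr (minimum count 10, total 15), TMM factors, robust glmQLFit and two-sided glmQLFTest without covariates, Benjamini-Hochberg adjustment over all tested genes and a threshold of 0.05. SE is the absolute log2 fold change over the root of F. A prior count of 2 was added for log2 CPM. The GC correction is a loess offset per library (span 0.5, genes above a mean log2 CPM of 2). DESeq2 1.42.0 and limma-voom (limma 3.58.1) were alternatives. Fits were tested on simulated data. Every pair of libraries differed by more than sampling noise (of 28 pairs, the lowest chi-square per gene was 7.63). The 10 genes were chosen, and the lists and motifs written, with earlier results of these data known. Named genes are the 10, the 3 with the smallest p of each pathway list, relatives of the 10, Cebpb, Hspa5 and 5 nearest profiles. Eif2ak1, Eif2ak3, Eif2ak4, Slc7a11, Mthfd2, Psph, Gdf15, Fgf21, Xbp1, Cebpg, Cebpd, Elane, Camp, Hlf, Marco and Ccr2 were added after their values were seen.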

Additional observations from a re-analysis of the deposited data

Results flagged for a closer look

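In 4 of the 20 groups of 4 libraries (10 genes in 2 groups), 1 library lay far from the other 3 by Dixon's ratio at the 95% limit for groups of 4; chance gives about 1 in 20 groups. Atf4 stood at 1015.5 CPM in malonyl-CoA 5 (ratio 0.89), Trib3 at 52.7 CPM in malonyl-CoA 4 (0.957), Sesn2 at 40.5 CPM in control 5 (0.846) and Phgdh at 154 CPM in control 5 (0.878). The last 2 share a library, control 5, whose gene levels fell most with GC share. In GC-corrected CPM, control 5 had 57.6 for Sesn2 against 64.1 to 68.4 in the other controls, and 208 for Phgdh against 327 to 350. The source of these low values was not tested.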

How the results depend on the processing

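Of the 10 genes, 0 passed under any setting tried (no low-count filter or one of 1 CPM, scaling by RLE or by library size alone, the replicate block, DESeq2, limma-voom, the GC correction, any 1 library left out, malonyl-CoA 4 and control 5 left out, and the legacy edgeR fit, the last chosen after seeing the data). Genes called over the whole table were 0 in the fit used here, 1 with no low-count filter, 172 with the replicate block, 82 in DESeq2 and 6 with the block and the GC correction together; leaving out 1 library gave 0 throughout. The numbers pair the libraries in 3 of 4 cases by the correlation of their deviations (0.43, 0.43 and 0.75, but 0.05 for number 5), which is short of the rule, so the block was not used; with it the smallest adjusted p of the 10 genes was 0.0517, for Ppp1r15a. Genes above 0 numbered 8, 7 to 9 with 1 library left out, 4 with the GC correction and 5 with that and the block. Over all genes, 53.4% were above 0 in the fit used here and 45.5% with the GC correction. The median log2 fold change was 0.19, 0.15 to 0.30 with 1 library left out (0.30 without control 3), -0.0228 with the GC correction and -0.015 with that and the block. Signs turned for Atf4 (-0.0625 with the GC correction, -0.058 with that and the block together), Chac1 (-0.0391 and -0.0325), Ddit4 (-0.0964 and -0.0557), Phgdh (-0.00652 with the correction, -0.012 without control 5) and Asns (0.0284 without malonyl-CoA 4, 0.0586 without it and control 5); the cause was not tested. With 1 library left out, Asns ran from -0.189 to 0.0284 and Phgdh from -0.012 to 0.293. Ddit3, Ppp1r15a, Sesn2 and Trib3 stayed above 0 and Psat1 below it under every setting. Counts of 137 to 444 reads limit the precision of Ddit3.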

Other observations

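Among 10648 other named genes whose mean log2 CPM reached 1, the 5 whose deviations over the 8 libraries lay closest to the mean profile of the 10 genes were Ncf4, Sdf2l1, Vasp, Slc3a2 and Actr1b. Their root mean square distances from it were 0.0487, 0.0507, 0.0555, 0.0604 and 0.0605 in log2 CPM, and their log2 fold changes 0.32 (SE 0.12), 0.27 (SE 0.13), 0.18 (SE 0.11), 0.19 (SE 0.11) and 0.22 (SE 0.12). Sdf2l1, an ER chaperone partner, and Slc3a2 are also on the pathway lists. All 5 were picked for likeness, and no p is attached to it.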
